A study of Mus musculus with 24 samples.

Results

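The mature microRNAs (miRNAs) of subcutaneous fat were compared between treadmill-trained and sedentary female mice of the wild type genotype. The comparison used 12 of the 24 small RNA libraries of the series, chosen by the genotype and training status in the labels: 6 trained wild type and 6 sedentary wild type libraries. The other 12 libraries, 6 trained and 6 sedentary, came from mice of a kinase dead genotype whose kinase is not named in the sources used here. They entered the filter on low counts, the scaling of the libraries and the estimate of the spread. They also served to test whether the effect of training differed by genotype. Trained mice ran on a treadmill for 1 hour on 5 days a week over 6.5 weeks at 16 m/min and could also use a running wheel at will. All mice were kept on chow at a regular light-dark cycle. The labels do not say whether the sedentary mice had a wheel, which subcutaneous depot was taken, or how old the mice were. They also do not say that each library came from a separate mouse, so the p-values below measure the spread between libraries.

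miRNAs are short RNAs cut from hairpin precursors, and 1 or both arms of a hairpin (5p and 3p) can be loaded into the silencing complex. The loaded strand pairs with messenger RNAs mainly through its seed, the bases 2 to 8 from its 5' end, so that miRNAs with the same seed form a family with shared targets. In fat, miRNAs are known both to promote and to restrain the differentiation of adipocytes and the heat-producing brown or beige state. A fat pad also holds vessels, nerves, blood and immune cells, which bring miRNAs of their own.

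Sequences of the most abundant miRNAs are given first, because these miRNAs hold a large share of the tissue's miRNA reads. miR-143-3p, the most abundant of all, also belongs to this group but is not printed. Sequences are from RefSeq on GRCm38.p6, 5' to 3', with the seed in capitals.
miR-21a-5p: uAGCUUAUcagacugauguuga
miR-126a-3p: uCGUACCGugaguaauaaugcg
miR-148a-3p: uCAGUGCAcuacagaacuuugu
miR-30a-5p: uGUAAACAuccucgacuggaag
miR-99a-5p: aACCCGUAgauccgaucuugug
miR-26a-5p: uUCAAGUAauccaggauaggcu
let-7g-5p: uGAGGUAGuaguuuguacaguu
let-7i-5p: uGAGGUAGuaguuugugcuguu
let-7g-5p and let-7i-5p share the seed GAGGUAG and belong to 1 family.

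The miRNAs with the smallest p-values among those higher in trained wild type fat are shown next, since the comparison turns on them. miR-378a-3p also belongs to this group but is not printed.
miR-203-5p: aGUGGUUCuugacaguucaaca
miR-203-3p: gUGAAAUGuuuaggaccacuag
miR-378c: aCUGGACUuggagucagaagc
miR-194-5p: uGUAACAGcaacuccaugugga
miR-192-5p: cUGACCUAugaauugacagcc
miR-674-3p: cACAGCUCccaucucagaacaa
miR-193a-5p: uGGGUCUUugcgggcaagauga
miR-5121: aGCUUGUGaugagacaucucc
The arms of miR-203 have different seeds, GUGGUUC and UGAAAUG, and so do not count as 1 family. miR-378c carries the seed CUGGACU, which the more abundant miR-378a-3p also has.

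Those with the smallest p-values among the miRNAs lower in trained wild type fat follow, together with miR-34a-5p, which shares the seed of miR-34b-5p.
miR-221-3p: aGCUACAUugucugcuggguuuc
miR-221-5p: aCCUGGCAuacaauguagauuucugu
miR-324-5p: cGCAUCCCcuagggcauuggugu
miR-146b-5p: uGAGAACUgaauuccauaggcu
miR-34b-5p: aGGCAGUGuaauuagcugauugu
miR-34a-5p: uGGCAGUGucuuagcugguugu
miR-451a: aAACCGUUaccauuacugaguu
miR-15a-3p: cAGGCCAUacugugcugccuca
miR-224-5p: uAAGUCACuagugguuccguu
miR-3970-5p also belongs to this group.

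The libraries held 4.63 to 13.2 M reads in the trained group and 1.601 to 20.9 M in the sedentary group. The means of 9.95 ± 2.92 M reads in trained and 6.59 ± 7.15 M reads in sedentary libraries (SD, n = 6 each) gave p = 0.0866 by a two-sided exact permutation test over 924 splits, and adjusted p = 0.130 over 3 such tests. Trained libraries had reads at 1159 loci on average and sedentary ones at 1010 (exact permutation p = 0.0736, adjusted p = 0.130), but after all were thinned at random to 1601209 reads the means were 812 loci in trained and 809 in sedentary libraries (exact permutation p = 0.747). The 10 most abundant loci took 47.6% of the reads in trained and 48.3% in sedentary libraries (exact permutation p = 0.526, adjusted p = 0.526). A count of 3 reads corresponds to 0.228 to 0.648 CPM (counts scaled to library size) in trained and 0.144 to 1.87 CPM in sedentary libraries, so that levels near 1 CPM rest on a few reads in the shallowest ones.

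Before the comparison itself, 3 wild type libraries stood apart from the rest in their lymphocyte marker miRNAs. Trained replicates 1 and 2 and sedentary replicate 1 held 24208, 15936 and 26151 CPM of the summed lymphocyte marker miRNAs (miR-150, miR-142a, miR-155, miR-342, miR-181a and miR-181b). The other 4 trained libraries held 4087 to 5248 CPM and the other 5 sedentary ones 4694 to 6304 CPM. The first principal component of the wild type libraries carried 42.4% of the variance, and on it these 3 libraries scored -19.6 to -13.6 and the other 9 scored 1.13 to 9.54. Some of the values below are also given without these 3 libraries. On the second component, which carried 16.7% of the variance, sedentary replicate 4 scored 19.1 and all other libraries -6.0 to 2.0. Sedentary replicate 4 was also the shallowest library, at 1.601 M reads, and some values below are given without it.

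**Figure D1:**
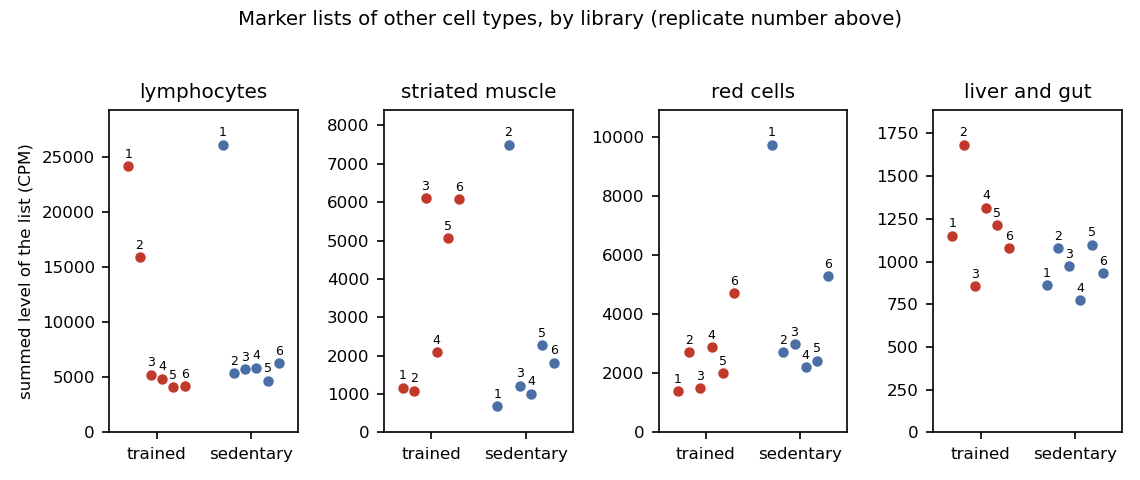
Summed levels (CPM, y axis) of 4 lists of marker miRNAs in each wild type library, trained left and sedentary right, with the replicate number above each point. Trained replicates 1 and 2 and sedentary replicate 1 are high for lymphocytes, and the muscle and red cell lists vary within both groups.

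The tissue label was set beside its markers. Of 22 loci of adipocyte miRNAs 21 passed the filter on low counts, and they summed to 245869 to 296802 CPM in trained and 240700 to 354629 CPM in sedentary libraries. The most abundant of them, miR-143-3p, also marks smooth muscle, and the copies of miR-26a-5p share reads. This sum alone therefore does not identify the tissue. Epithelial miRNAs (miR-200 family, miR-141, miR-429, miR-205 and miR-203) were also present, with 15815 to 26693 CPM in trained and 15235 to 25269 CPM in sedentary libraries. Of 16 loci of striated muscle miRNAs 9 passed, and 2 of the other 7 were at 0 reads in all 12 libraries. In bulk tissue, fewer cells of a type and less RNA per cell cannot be told apart.

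No miRNA passed the threshold in trained against sedentary wild type fat. edgeR's quasi-likelihood test called 0 of 654 loci (0%) at a Benjamini-Hochberg adjusted p under 0.05, with 0.831 as the smallest adjusted p, and DESeq2 also called 0 with a smallest adjusted p of 0.577. At an unadjusted p under 0.05 there were 38 loci by edgeR (5.81% of those tested) and 41 by DESeq2. Leaving out 1 library at a time gave 20 to 46 such loci, with 20 without trained replicate 4 and 24 without trained replicate 6 or sedentary replicate 4. Of the 38, 15 were higher (2.29%) and 23 lower (3.52%) in trained libraries. That split rested on the scaling: with upper-quartile factors, which moved the median log2 fold change of all loci to 0.098, against -0.0081 with TMM factors, 30 were higher and 6 lower. Without sedentary replicate 2 it was 24 higher and 8 lower. Over all loci 318 lay above 0 (48.6%) and 336 below (51.4%). In 0 of 654 loci (0%) did the 6 trained and 6 sedentary libraries separate without overlap.

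The depth and spread limit which changes could be seen. For the 386 loci with a mean of at least 10 CPM, the 95% interval of the log2 fold change reached a median of 0.418 to either side. In 82.64% of these loci the whole interval lay within a 2-fold change in either direction, and in 51.81% within 1.5-fold. For the 93 loci of at least 1000 CPM these shares were 88.17% and 72.04%. The median coefficient of variation for loci of at least 1000 CPM was 15.93% among trained and 20.01% among sedentary libraries, a difference that was not tested.

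**Figure D2:**
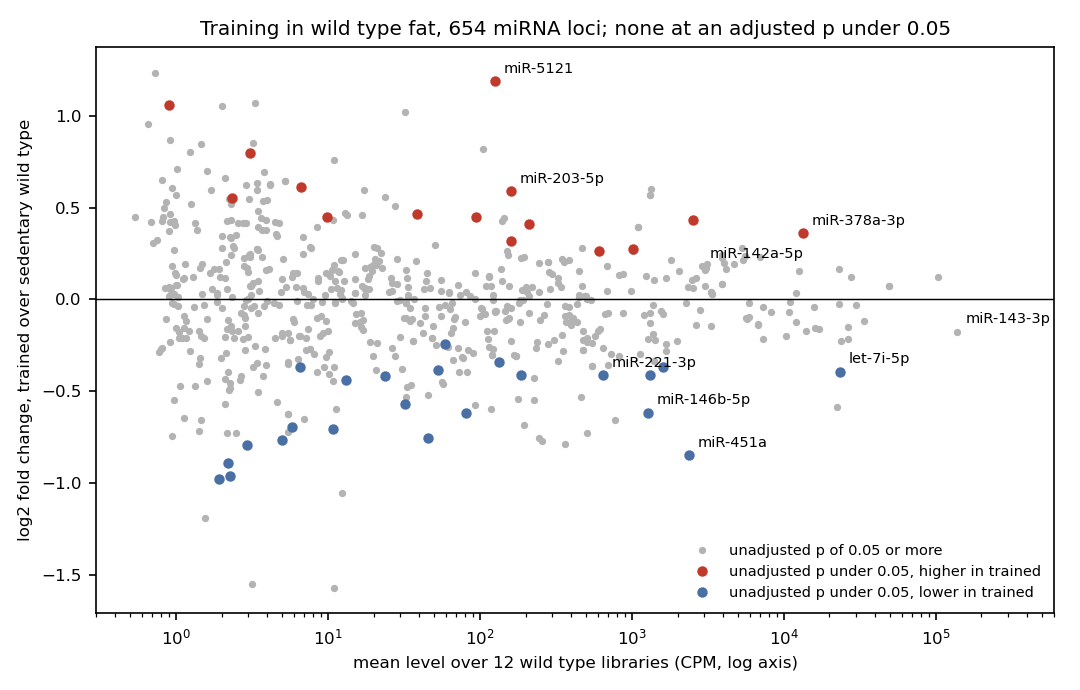
Each point is 1 of 654 miRNA loci, with its mean level over the 12 wild type libraries (CPM, log axis) and its log2 fold change, trained over sedentary. The 38 coloured points have an unadjusted p under 0.05, and they lie at low and high levels alike; the scatter is widest at the low end.

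The most abundant miRNAs lay close together in trained and sedentary fat. In what follows, 3 levels given for a group are those of its lowest, its median and its highest library. miR-143-3p, which promotes the differentiation of adipocytes and marks smooth muscle, took 13.3% of the reads and stood at 114681, 122189 and 153992 CPM in trained and 114820.0, 147070.0 and 183323 CPM in sedentary libraries. The groups overlapped nearly throughout, with a log2 fold change of -0.18 (SE 0.16, edgeR adjusted p = 0.957), or -0.09 without sedentary replicate 2. miR-21a-5p, encoded in an exon of Vmp1 and widely expressed in growing or stressed tissue, had 93508, 107272 and 118242 CPM in trained and 64853, 100392 and 143064 CPM in sedentary libraries. All 6 trained libraries lay inside the sedentary range, and the fold change was 1.09 with a 95% interval of 0.878 to 1.35. Its log2 fold change ranged from 0.02 without sedentary replicate 4 to 0.32 without sedentary replicate 2 (unadjusted p = 0.0434, edgeR adjusted p = 0.858).

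miR-126a-3p, made from an exon of Egfl7 and known from endothelial cells, had 44626, 50235 and 56613 CPM in trained and 33049, 45503 and 68970.4 CPM in sedentary libraries. The trained libraries again lay within the sedentary range (log2 fold change 0.07, SE 0.19), and the sign turned without sedentary replicate 1 (-0.02). On the other strand lies miR-126b-5p, and the same reads are counted there too. miR-148a-3p, which promotes adipogenesis, had 25946, 32768 and 37185 CPM in trained and 31162, 33968 and 44105 CPM in sedentary libraries. Sedentary replicate 3 was its highest, and the log2 fold change was -0.12 (SE 0.15), or 0.0075 without trained replicate 3. miR-30a-5p, of a family that promotes adipogenesis, had 25892, 29146 and 32472 CPM in trained and 22494, 29834 and 38743 CPM in sedentary libraries, with a fold change of 0.978 (95% interval 0.771 to 1.24).

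miR-99a-5p, of the family of miR-99 and miR-100, had 18736, 32023 and 36326 CPM in trained and 19790.5, 24824 and 38514 CPM in sedentary libraries. Trained replicates 1 and 2 were its lowest trained libraries, and the log2 fold change was 0.12 (SE 0.19). miR-26a-5p is made from 2 genes, each in an intron of a phosphatase gene, Mir26a-1 in Ctdspl and Mir26a-2 in Ctdsp2, and the reads of the 2 copies cannot be told apart. The first copy had 22072, 23908 and 33663 CPM in trained and 21115, 27289 and 37064 CPM in sedentary libraries, with trained replicate 3 far above the other trained ones. The log2 fold changes of the copies were -0.15 (SE 0.14) and -0.21 (SE 0.15), or -0.02 and -0.06 without sedentary replicate 5.

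let-7 miRNAs, the family with the most loci among the abundant seeds, had lower means in trained fat without passing. They restrain growth by repressing targets such as Lin28 and Hmga2. let-7i-5p had 17128, 21001 and 22366 CPM in trained and 21002, 25843 and 34878 CPM in sedentary libraries. All 6 trained libraries lay below the sedentary median and 3 of them inside the sedentary range (log2 fold change -0.39, SE 0.17, unadjusted p = 0.0266, edgeR adjusted p = 0.831). let-7g-5p, encoded in an intron of Wdr82, had 18851, 22839.6 and 23654 CPM in trained and 19449, 23932 and 33688 CPM in sedentary libraries, a log2 fold change of -0.23 (SE 0.16), or -0.11 without trained replicate 3. Its trained libraries also all lay below the sedentary median, but 5 of 6 were inside the sedentary range.

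**Figure D3:**
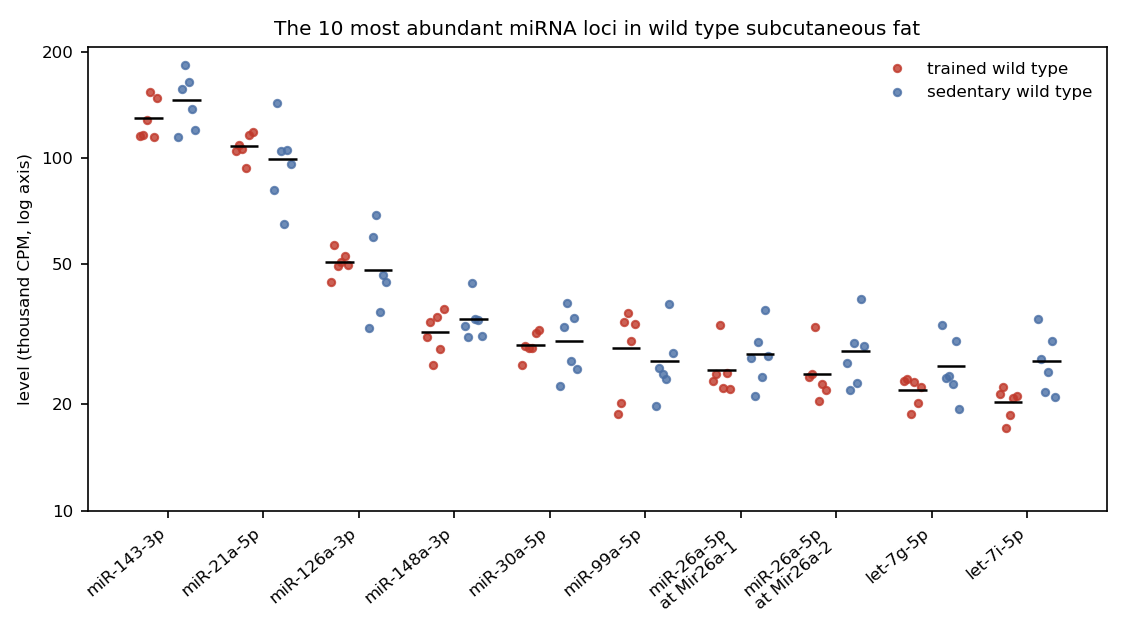
Levels of the 10 most abundant loci (CPM divided by 1000, log axis) in 6 trained (red, left) and 6 sedentary (blue, right) wild type libraries; the line is the mean of a group. The groups overlap in all 10, and the sedentary points of miR-21a-5p and miR-126a-3p spread more widely than the trained ones.

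Among miRNAs with a mean of at least 10 CPM that were higher in trained fat, both arms of miR-203 had the smallest p-values. miR-203 drives the differentiation of skin epithelium by repressing p63, and has been linked to brown adipocytes. It lies on chromosome 12 (GRCm38) between genes on its strand, with its 5p arm at 112130889 to 112130910 and its 3p arm at 112130927 to 112130948. miR-203-5p had 159.8, 198 and 233 CPM in trained and 72.9, 139 and 160.3 CPM in sedentary libraries. Every trained library exceeded the median sedentary one, and 1 lay just under the highest sedentary library. The log2 fold change was 0.59 (SE 0.19, unadjusted p = 0.00548, edgeR adjusted p = 0.831), and it ranged from 0.47 to 0.71 when each library was left out in turn.

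miR-203-3p, its main arm, had 2417, 2902 and 3302 CPM in trained and 1578, 2229 and 2540.3 CPM in sedentary libraries. Here 2 of 6 trained libraries were inside the sedentary range (log2 fold change 0.43, SE 0.15, edgeR adjusted p = 0.831). The share of the 5p arm in the reads of this hairpin was 6.32 ± 0.634% in trained and 5.64 ± 0.709% in sedentary libraries (SD, n = 6 each), and by limma the arms' ratio did not pass (adjusted p = 0.745). Both arms were already known from earlier results of these data to stand out, so their place here is not independent evidence.

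miR-378a-3p is encoded in an intron of Ppargc1b, the gene of a coactivator of mitochondrial and oxidative metabolism. It took 1.43% of the reads and had 13071, 14140.5 and 18693 CPM in trained and 8409.6, 11938 and 13541 CPM in sedentary libraries. Each trained library exceeded the median sedentary one, with 2 of 6 within the sedentary range (log2 fold change 0.36, SE 0.14, edgeR adjusted p = 0.831). miR-378c, from its own gene on chromosome 14, had 884, 1067 and 1440.4 CPM in trained and 802, 947 and 1034 CPM in sedentary libraries (log2 fold change 0.28, SE 0.12). Trained replicates 4 and 6 were the highest trained libraries for both.

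miR-194 and miR-192 are encoded in clusters and are known from liver, gut and kidney. miR-194-5p has 2 genes with the same mature sequence, Mir194-1 on chromosome 1 and Mir194-2 on chromosome 19, and Mir194-2 lies beside Mir192. At Mir194-2 it had 201, 224 and 295 CPM in trained and 127, 174 and 256 CPM in sedentary libraries. The trained libraries were all above the median sedentary level, and 4 were within the sedentary range (log2 fold change 0.41, SE 0.16). At Mir194-1 the log2 fold change was 0.32 (SE 0.15), and 0.19 (SE 0.19) without the 3 libraries rich in lymphocyte miRNAs. miR-192-5p had 464, 708 and 773 CPM in trained and 492, 559.9 and 605 CPM in sedentary libraries, where trained replicate 3 was the lowest of all 12 (log2 fold change 0.26, SE 0.12). Without that library its log2 fold change was 0.42 (unadjusted p = 0.00120, edgeR adjusted p = 0.461). Without trained replicate 2 it was 0.21. With each library left out in turn, the unadjusted edgeR p for miR-192-5p reached up to 0.097.

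miR-674-3p had 91.2, 105 and 132 CPM in trained and 49.2, 81.3 and 105 CPM in sedentary libraries. The trained libraries all exceeded the median sedentary level, and 3 of 6 were within the sedentary range, with a log2 fold change of 0.45 (SE 0.18). miR-193a-5p had 31.4, 46.4 and 58.5 CPM in trained and 20.2, 33.7 and 41.9 CPM in sedentary libraries, a log2 fold change of 0.47 (SE 0.20). Its trained replicates 1 and 2, which were rich in lymphocyte miRNAs, were the lowest trained libraries, and without the 3 such libraries the value was 0.58 (SE 0.21). Without sedentary replicate 1 alone it was 0.36.

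miR-5121 had the highest fold change of these and the widest spread. Its locus on chromosome 7 lies inside the small nucleolar RNA gene Snord33 within Rpl13a, so its reads cannot be told apart from fragments of that RNA. It had 50.8, 104 and 462 CPM in trained and 42.2, 74.2 and 112 CPM in sedentary libraries. The high trained values were those of replicates 4 and 5, and the log2 fold change of 1.19 (SE 0.50) became 0.71 without trained replicate 4. All of the 10 miRNAs named as higher had an edgeR adjusted p of 0.831.

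Of the miRNAs lower in trained fat, miR-221-3p had the smallest p of all 654 loci. miR-221 and its neighbour miR-222, on the X chromosome, repress the cell cycle inhibitor p27 and restrain adipogenesis in cultured cells. miR-221-3p had 479, 561 and 640.1 CPM in trained and 620.1, 724 and 911 CPM in sedentary libraries. Only trained replicate 3 reached the sedentary range (log2 fold change -0.41, SE 0.13, unadjusted p = 0.00332, edgeR adjusted p = 0.831). With relative-log-expression factors the groups did not overlap, and miR-221-3p was then the 1 such locus. The other arm, miR-221-5p, had 39.7, 45.9 and 51.6 CPM in trained and 49.7, 61.0 and 73.2 CPM in sedentary libraries (log2 fold change -0.38, SE 0.15). The share of the 5p arm was 7.68 ± 0.908% in trained and 7.53 ± 0.913% in sedentary libraries (SD, n = 6 each).

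miR-324-5p, encoded in an exon of Dvl2 and known in human cells to repress the Hedgehog effector GLI1, had 48.0, 62.2 and 84.3 CPM in trained and 78.6, 85.6 and 154 CPM in sedentary libraries. Every trained library was below the median sedentary one and 2 reached the sedentary range (log2 fold change -0.62, SE 0.19, edgeR adjusted p = 0.831). The value was -0.37 without sedentary replicate 2. Without the 3 libraries rich in lymphocyte miRNAs its log2 fold change was -0.86 (SE 0.21, edgeR adjusted p = 0.397). Its groups then did not overlap, as at 24 of 654 loci (3.67%). miR-146b-5p, which dampens signalling through Traf6 and Irak1 and promotes adipogenesis, had 754, 1075 and 1114 CPM in trained and 955, 1578 and 1911 CPM in sedentary libraries. Sedentary replicate 3, at 955 CPM, lay among the trained libraries, and the other 5 sedentary ones were well above them (log2 fold change -0.62, SE 0.22).

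miR-34b-5p, a target of p53, had 21.7, 25.1 and 28.7 CPM in trained and 24.9, 33.7 and 61.8 CPM in sedentary libraries. The trained libraries were close together and the sedentary ones spread (log2 fold change -0.57, SE 0.23). miR-34a-5p, with the same seed and also a target of p53, had 147, 193 and 249 CPM in trained and 206, 247 and 323 CPM in sedentary libraries (log2 fold change -0.43, SE 0.21, unadjusted p = 0.0527). miR-224-5p, encoded in an intron of Gabre, had 110.3, 162 and 194 CPM in trained and 151, 202 and 320.3 CPM in sedentary libraries. All 6 trained libraries were below the sedentary median and 5 within the sedentary range (log2 fold change -0.41, SE 0.19, and -0.22 without sedentary replicate 5).

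miR-451a, the abundant miRNA of red cells, which matures without Dicer, had 904, 1525 and 3204 CPM in trained and 1733, 1933 and 7009.9 CPM in sedentary libraries. The highest value was that of sedentary replicate 1, and the log2 fold change of -0.85 (SE 0.37) was -0.41 without it. miR-15a-3p, the minor arm of miR-15a in an intron of Dleu2, had 9.91, 10.8 and 13.7 CPM in trained and 8.83, 15.04 and 18.9 CPM in sedentary libraries (log2 fold change -0.44, SE 0.20). miR-3970-5p had 7.31, 7.99 and 9.35 CPM in trained and 6.22, 10.3 and 24.4 CPM in sedentary libraries (log2 fold change -0.71, SE 0.33, and -0.43 without sedentary replicate 1). For both, all 6 trained libraries were below the sedentary median yet inside the sedentary range. All of the 10 miRNAs named as lower had an edgeR adjusted p of 0.831.

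**Figure D4:**
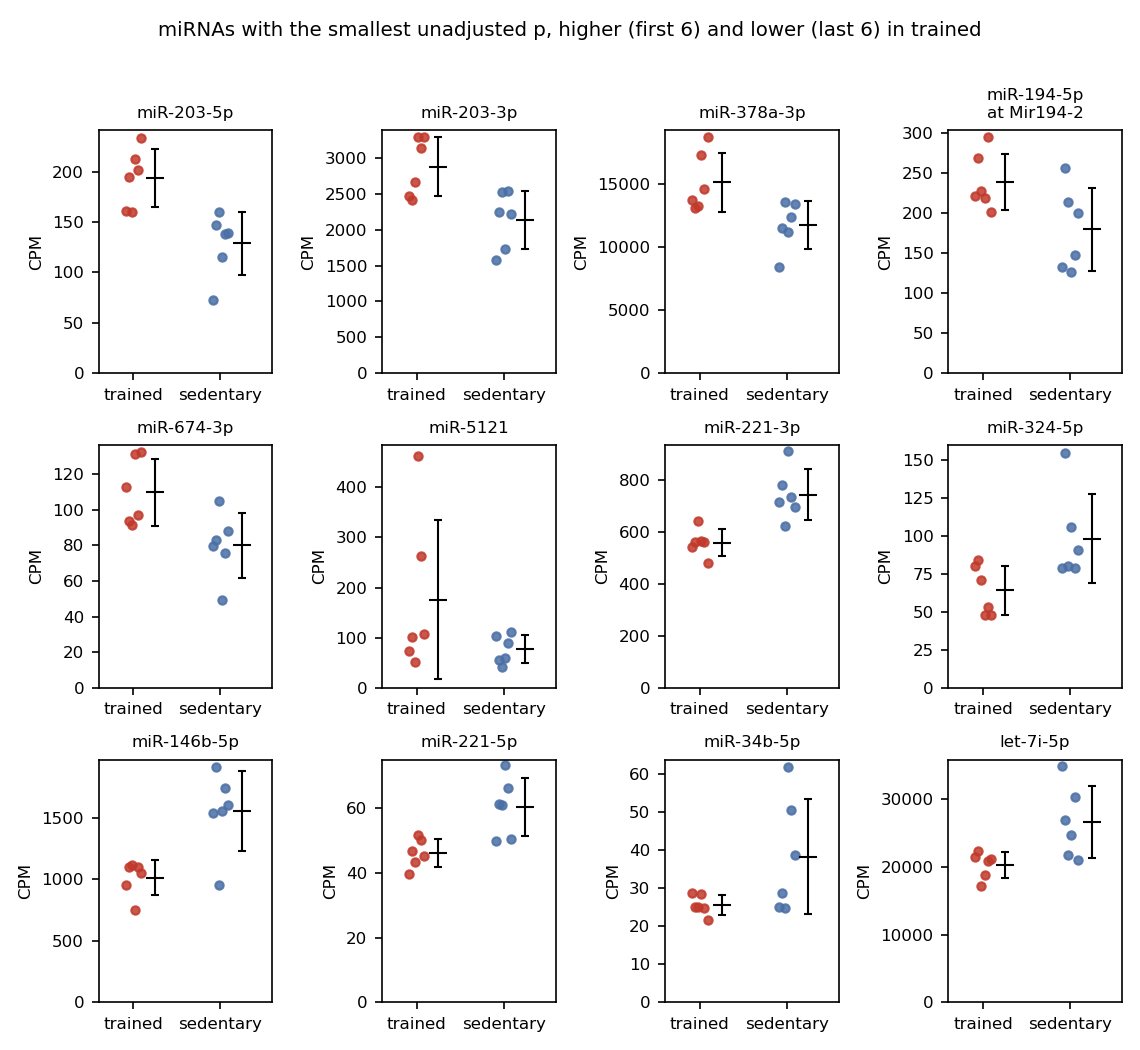
Levels (CPM) in 6 trained (red, left) and 6 sedentary (blue, right) wild type libraries for the 6 miRNAs with the smallest p among those higher and the 6 among those lower in trained fat; bars are the mean and SD. Every panel has some overlap between groups, which is narrowest for miR-221-3p and miR-203-5p.

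The effect of training was also set against that in kinase dead fat by the interaction term. edgeR called 0 of 654 loci (0%), with 13 at an unadjusted p under 0.05 (1.99%), and DESeq2 called 0 with 14 at an unadjusted p under 0.05. Of the 20 miRNAs named as higher or lower, 4 were among the 13. The 20 were chosen by their training effect in wild type fat, which is part of this difference. That choice raises their share among the 13, so the count is no evidence of a difference between genotypes. For miR-451a the log2 fold change was -0.85 in wild type and 0.41 in kinase dead fat, a difference of -1.26 (SE 0.52). For miR-224-5p it was -0.41 in wild type and 0.21 in kinase dead fat. For miR-34b-5p it was -0.57 in wild type and 0.13 in kinase dead fat, and for miR-674-3p 0.45 in wild type and -0.12 in kinase dead fat. None had an adjusted p under 0.05, so a difference between the genotypes was not shown.

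Seeds group the miRNAs by their targets, so reads were also summed over all loci with the same bases 2 to 8. edgeR called 0 of 448 seed families (0%) at an adjusted p under 0.05, with 29 at an unadjusted p under 0.05 (6.47%) and a smallest adjusted p of 0.698. Levels of families are on the scale of the summed table, which differs slightly from that of single loci. The let-7 family (GAGGUAG, 14 loci, 13.6% of the reads) had 131373 ± 14319 CPM in trained and 147804 ± 16777 CPM in sedentary libraries (SD, n = 6 each). Its log2 fold change of -0.17 had a 95% interval of -0.39 to 0.05, narrower than that of let-7i-5p alone. The miR-30 family (GUAAACA, 7 loci, 6.35% of the reads) had 64626 ± 3605 CPM in trained and 64083 ± 9539 CPM in sedentary libraries, with a 95% interval of -0.25 to 0.28 on the log2 scale.

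The seed of miR-378 (CUGGACU, miR-378a-3p with miR-378c, 1.64% of the reads) was the most abundant of the 29 families. It had 17445 ± 2888 CPM in trained and 13598 ± 2621 CPM in sedentary libraries (log2 fold change 0.36, SE 0.16, unadjusted p = 0.0326, edgeR adjusted p = 0.698). The seed shared by miR-34a-5p, miR-34b-5p and miR-34c-5p (GGCAGUG, 6 loci) had 586 ± 25.5 CPM in trained and 717 ± 99.5 CPM in sedentary libraries (log2 fold change -0.29, SE 0.13). The seed of miR-221 and miR-222 (GCUACAU) stood lower, at 941 ± 67.7 CPM in trained and 1204 ± 183 CPM in sedentary libraries (log2 fold change -0.36, SE 0.14). The miR-27 seed (UCACAGU), known for repressing the adipocyte regulator Pparg, lay at 20476 ± 1987 CPM in trained and 17831 ± 3140 CPM in sedentary libraries (log2 fold change 0.20, SE 0.13). The 5 smallest p-values belonged to the seeds of miR-324-5p, miR-5132-5p, miR-344b-3p, miR-344-3p and miR-203-5p. Of these, the seed of miR-5132-5p was at 1.36 ± 0.459 CPM in trained and 0.569 ± 0.383 CPM in sedentary libraries. The seed of miR-344b-3p was at 2.33 ± 0.486 CPM in trained and 3.98 ± 1.28 CPM in sedentary libraries, and that of miR-344-3p at 3.40 ± 0.742 CPM in trained and 6.18 ± 2.48 CPM in sedentary libraries (SD, n = 6 each).

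Among the seeds with more reads than that of miR-378, that of miR-22-3p (AGCUGCC, 2.37% of the reads) had the log2 fold change farthest from 0, and is named after its values were seen. miR-22-3p regulates metabolism and growth in heart muscle. It had 10569.8, 19140.5 and 23957 CPM in trained and 16194, 23598 and 47251 CPM in sedentary libraries. Sedentary replicate 4 was the highest library, 5 of 6 trained libraries lay below the sedentary median, and the log2 fold change was -0.58 (SE 0.35, edgeR adjusted p = 0.906).

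The choice of the arm was compared within each hairpin as the ratio of 5p to 3p reads, which no scaling of the libraries can alter. By limma 0 of 191 hairpins passed (0%), with 16 at an unadjusted p under 0.05 (8.38%) and a smallest adjusted p of 0.576. Without sedentary replicate 4 there were 2 at that threshold. The 5p share of Mir532 was 97.8 ± 0.334% in trained and 98.5 ± 0.418% in sedentary libraries (SD, n = 6 each), the smallest p of all. Mir335, in an intron of Mest, had a 5p share of 53.1 ± 10.2% in trained and 65.0 ± 5.46% in sedentary libraries, a larger shift with a wider spread. Mir350 had 14.2 ± 3.42% in trained and 9.46 ± 2.97% in sedentary libraries, and Mir187 had 4.13 ± 1.30% in trained and 2.58 ± 2.31% in sedentary libraries. Mir103-2, whose 3p sequence is shared with another gene, completed the 5.

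Lists of miRNAs with known roles were described by the counts and medians of their members, of which 0 passed singly in any list. The list that restrains adipogenesis had a median log2 fold change of -0.28 over 21 loci, against -0.01 over all 654, with 14 lower and 7 higher. At an unadjusted p under 0.05 it had 6 lower, against 3.52% of all loci, and 0 higher. The 6 became 2 without sedentary replicate 2, without trained replicate 4, with upper-quartile factors, without the filter and in thinned reads, and 3 or 4 without several other libraries. The median kept its sign under all alternatives tried, from -0.36 to -0.16. Those 6 were miR-221-3p, miR-221-5p, miR-222-5p, miR-31-3p, miR-224-5p and miR-138-5p at Mir138-1, so that 4 of the 6 come from the miR-221, miR-222 and miR-31 genes. This list was already known to be lower from earlier results of these data. Its most abundant members lay on the other side: miR-27b-3p had 11376, 13386 and 14334 CPM in trained and 9215, 12346 and 13591 CPM in sedentary libraries (log2 fold change 0.15, SE 0.11). miR-27a-3p had 4492, 5924 and 7422 CPM in trained and 2813, 4952 and 5712 CPM in sedentary libraries (log2 fold change 0.28, SE 0.18).

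miR-138-5p, which restrains adipogenesis in human stem cells, had 14.98, 19.7 and 26.3 CPM at Mir138-1 in trained and 20.7, 26.6 and 33.9 CPM in sedentary libraries. All 6 trained libraries lay below the sedentary median (log2 fold change -0.41, SE 0.20, and -0.27 without sedentary replicate 2). miR-31-5p had 60.9, 96.6 and 113 CPM in trained and 73.4, 122 and 282 CPM in sedentary libraries (log2 fold change -0.60, SE 0.29), where 5 of 6 trained libraries were inside the sedentary range. Summed over the list, levels were 19632 to 26797 CPM in trained and 17628 to 24481 CPM in sedentary libraries.

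The list that promotes adipogenesis had a median of -0.02 over 34 loci, 15 higher and 19 lower. miR-378a-3p and miR-146b-5p were its 2 members at an unadjusted p under 0.05, 1 in each direction. Over all loci 2.29% were higher and 3.52% lower at that threshold. The list that promotes brown or beige adipocytes had a median of 0.00 over 34 loci, 17 higher and 17 lower. Its 3 members at an unadjusted p under 0.05 were the arms of miR-203 and miR-378a-3p, all higher, against 2.29% of all loci. Both arms of miR-203 come from the same hairpin and are also on the epithelial list. The list that restrains these cells had a median of 0.21 over 19 loci, 13 higher and 6 lower, and it was -0.02 without trained replicate 1. It was 0.03 without the 3 libraries rich in lymphocyte miRNAs. With the level of the striated muscle list as a covariate it was -0.01, with 9 higher and 10 lower. This list shares miR-133a and miR-133b with the striated muscle list, and miR-150 and miR-155 with the lymphocyte list. For insulin and glucose handling, a list made largely of let-7 and miR-29 loci, 29 of 40 were lower with a median of -0.09, which was 0.01 with upper-quartile factors. The 2 at an unadjusted p under 0.05 were let-7i-5p and let-7g-3p, both lower, against 3.52% of all loci.

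Inflammation, matrix and vessel lists had medians of -0.07 to -0.01, against -0.01 over all loci. The inflammation list had 8 of 16 loci lower and a median of -0.05, which was -0.24 without trained replicate 1 and -0.20 with 10 lower without the 3 libraries rich in lymphocyte miRNAs, with miR-146b-5p as its 1 member at an unadjusted p under 0.05. At that threshold 3.52% of all loci were lower. The matrix and fibrosis list had 10 of 17 lower and a median of -0.07, and the list of vessel growth and hypoxia 9 of 16 lower and a median of -0.01. In the vessel and hypoxia list, miR-322-3p, of a family that slows the cell cycle, had the smallest p, with 134, 167 and 193 CPM in trained and 111, 138 and 170.2 CPM in sedentary libraries (log2 fold change 0.24, SE 0.14).

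Genomic clusters are transcribed together, so their members were set side by side. In the miR-17-92 and miR-106b-25 clusters, known for driving proliferation, 15 of 18 loci were lower with a median of -0.12, which was 0.02 without sedentary replicate 1. miR-92a-3p at Mir92-1, the most abundant of them, had 2014, 2762 and 5221 CPM in trained and 2150.2, 2676 and 6406 CPM in sedentary libraries, and its highest library in each group was replicate 1. In the miR-23-27-24 clusters 10 of 12 were higher with a median of 0.09. The 3 tested loci of the miR-183-96-182 cluster were all lower with a median of -0.17, and miR-182-5p alone turned to 0.04 with upper-quartile factors.

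The imprinted Dlk1-Dio3 locus on chromosome 12, a large miRNA cluster expressed from the maternal chromosome, had 67 of its 116 loci above the filter. Of these 49 were lower and 18 higher with a median of -0.20, and the median ranged from -0.29 to -0.03 over the alternatives. The value nearest 0 was that without sedentary replicate 4. miR-127-3p, its most abundant miRNA, had 901, 1075 and 1452 CPM in trained and 1029.8, 1289.5 and 2435 CPM in sedentary libraries. Sedentary replicates 4 and 5 were its highest, and the log2 fold change was -0.41 (SE 0.20), or -0.23 without sedentary replicate 4.

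**Figure D5:**
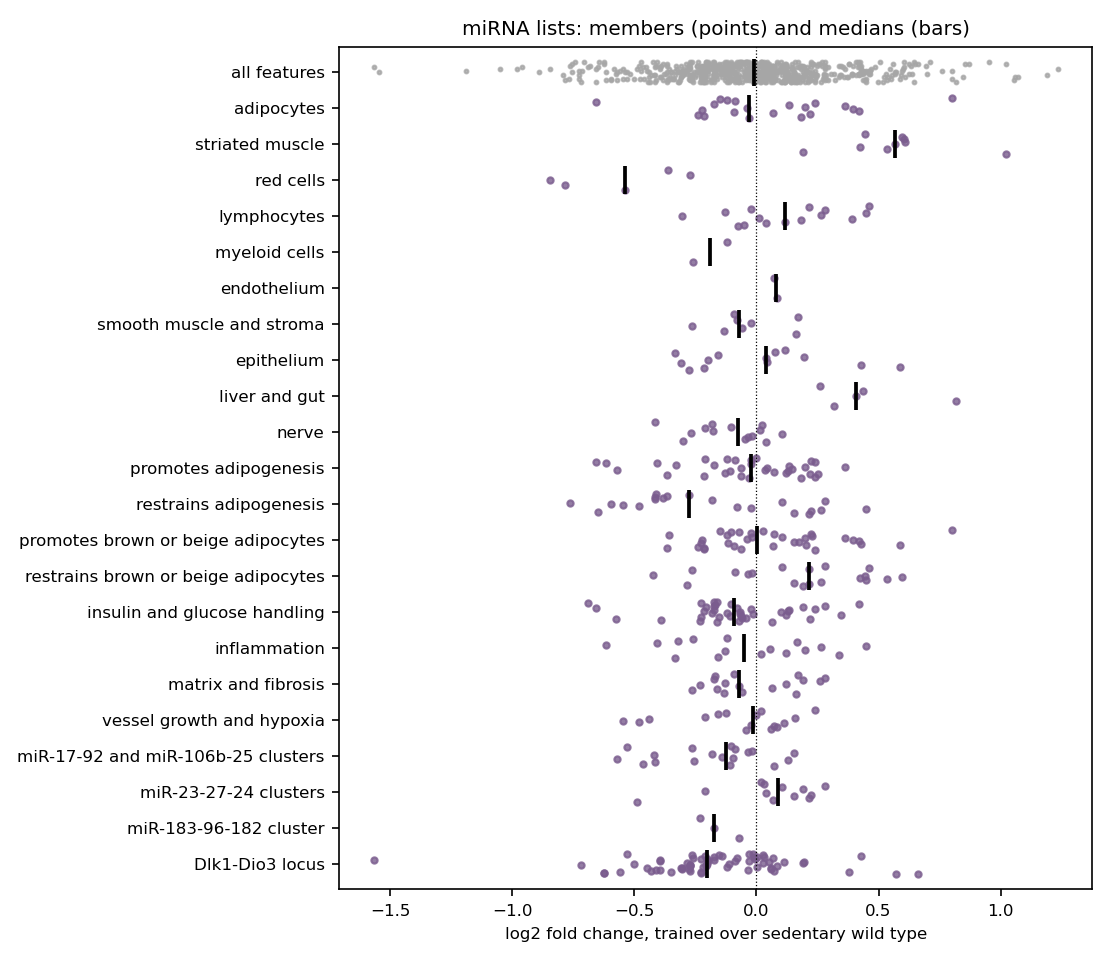
Log2 fold change, trained over sedentary wild type, of each tested member (points) of 22 lists and of all 654 loci (top), with the median of each as a bar. The muscle and liver lists lie above 0, the red cell list and most members that restrain adipogenesis below 0, and most other medians within 0.2 of 0.

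In some marker lists of other cell types all tested loci lay in the same direction, though the summed levels of the groups overlapped. The part of these markers in the results was not tested. All 9 striated muscle loci were higher, with a median of 0.57 (0.30 to 1.40 without each library in turn, and -0.06 with the muscle score itself as a covariate). These loci include copies with the same sequence. With copies summed, 6 were tested and 6 were higher, with a median of 0.61. Without trained replicate 3, 8 of the 9 loci were higher and 1 lower. The summed list lay at 1091, 3576 and 6097 CPM in trained and 687, 1518 and 7503 CPM in sedentary libraries. Trained replicates 3, 5 and 6 and sedentary replicate 2 were at 5059.7 CPM or more, so the highest library was a sedentary one. miR-1a-1-3p, the main miRNA of striated muscle, had 463, 1614 and 2809.7 CPM in trained and 299, 654 and 3327 CPM in sedentary libraries (log2 fold change 0.60, SE 0.68, and 1.497 without sedentary replicate 2). miR-499-5p, encoded in the myosin gene Myh7b, was scarce but more even, with 6.08, 8.10 and 9.26 CPM in trained and 2.78, 4.92 and 9.52 CPM in sedentary libraries (log2 fold change 0.61, SE 0.28, edgeR adjusted p = 0.831).

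The 5 red cell loci were all lower, with a median of -0.54. Without sedentary replicate 1 alone the median was -0.14 and 2 of 5 were higher, and without all 3 libraries rich in lymphocyte miRNAs it was 0.05 and 3 were higher. Their sum lay at 1389, 2362 and 4723 CPM in trained and 2223, 2858 and 9761 CPM in sedentary libraries. The 5 liver and gut loci were all higher with a median of 0.41, ranging from 0.21 to 0.53 over the alternatives, and 3 were at an unadjusted p under 0.05, the 2 copies of miR-194-5p and miR-192-5p, against 2.29% of all loci. That count was 0 without the 3 libraries rich in lymphocyte miRNAs or without sedentary replicate 4 alone. It was 1 without sedentary replicate 1, trained replicate 1 or trained replicate 2, and in the 12 wild type libraries fitted alone. miR-122-5p, the defining miRNA of hepatocytes, had 7.23, 67.3 and 423 CPM in trained and 7.59, 55.4 and 225 CPM in sedentary libraries, and 3 of 6 trained libraries lay above the sedentary median (log2 fold change 0.82, SE 0.92).

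Lymphocyte loci had a median of 0.12 over 15, with 10 higher, and -0.31 to 0.38 without each library in turn. Without the 3 libraries that are rich in these miRNAs, 4 were higher and 11 lower with a median of -0.18. miR-142a-5p, known from blood cells, had 483, 625 and 10142 CPM in trained and 740.4, 1001 and 11391 CPM in sedentary libraries. Its log2 fold change of 0.18 (SE 1.02) was -0.74 without the 3 libraries rich in it, where every trained library lay below every sedentary one. Those libraries were left out for high levels of this list, and miR-142a-5p is its most abundant member. The separation is therefore no independent evidence, and 24 of 654 loci (3.67%) did not overlap once they were left out. miR-223-3p, the neutrophil miRNA, had 143, 175 and 210.1 CPM in trained and 163, 186 and 239.6 CPM in sedentary libraries (log2 fold change -0.12, SE 0.14). The endothelial, stromal, epithelial and nerve lists had medians of 0.08, -0.07, 0.04 and -0.08 over 2, 8, 13 and 14 loci. Without the 3 libraries rich in lymphocyte miRNAs the stromal median was 0.08 with 5 of 8 higher, and the epithelial one -0.02. miR-199a-3p at Mir199a-2, a stromal miRNA within Dnm3os, stood at 6466 ± 924 CPM in trained and 7086 ± 1338 CPM in sedentary libraries, and miR-200a-3p, an epithelial one, at 9581 ± 2169.9 CPM in trained and 11009 ± 1953 CPM in sedentary libraries (SD, n = 6 each).

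Without the 3 libraries rich in lymphocyte miRNAs, 4 trained libraries were set against 5 sedentary ones. edgeR then called 0 of 654 loci with a smallest adjusted p of 0.397, and 53 had an unadjusted p under 0.05. The groups did not overlap for 24 loci (3.67%), 14 higher (2.14%) and 10 lower (1.53%) in trained libraries. Of the 20 miRNAs named as higher or lower, 4 were among them, both arms of miR-203, miR-193a-5p and miR-324-5p. The 20 were chosen with these same libraries in the fit, so that count is no independent evidence. Other loci without overlap, named after their values were seen, were miR-27a-3p and miR-199a-5p among the higher, and miR-34a-5p, miR-146a-5p and let-7i-3p among the lower.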

How the data were processed

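Small RNA was extracted with TRIzol and made into libraries with the NEBNext small RNA kit, per the labels' protocols. The authors deposited raw read counts per mature miRNA locus; per the submitters' processing notes the tools were CASAVA 1.8.2, Trim Galore, Bowtie2 and featureCounts on mm10, and the counting of reads that fit several loci is not stated there. Of 2045 loci, 1670 were named by RefSeq coordinates, 4 by another copy and 371 by their GENCODE hairpin; 231 share a mature sequence with another locus. Loci with low counts (edgeR's filterByExpr) were left out, which removed 1391 loci with 0.0166% of the reads and left 654. Counts of all 24 libraries in 4 groups were fitted with edgeR 4.0.16 (TMM factors, quasi-likelihood test, R 4.3.3) with Benjamini-Hochberg adjustment over all loci; CPM values are TMM-scaled. DESeq2 1.42.0 was the alternative, and limma 3.58.1 tested 5p to 3p ratios after adding 0.5 reads to each arm. Families sum loci with the same bases 2 to 8, leaving out 40 opposite-strand loci. The code was tested on simulated data. Libraries of 1 group differed by more than sampling noise (chi-square per degree of freedom 48.1 or more over 30 pairs). Intervals are at 95%, and floors cover counting error only.

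Named miRNAs were the 10 most abundant, the 10 of smallest p in each direction with a mean of at least 10 CPM, the most abundant and smallest-p member of each list, and the 5 families and hairpins of smallest p. Members and lists were chosen with earlier results of these data known. Alternatives were other scalings and tools, no filter, wild type libraries alone, summed copies, thinned reads, marker scores as covariates, and leaving out libraries.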

Additional observations from a re-analysis of the deposited data

Results flagged for a closer look

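Among 106 groups of 6 libraries examined for a single library far from the other 5, 11 had one, where chance gives about 5% or 5.3 groups. miR-26a-5p was far higher in trained replicate 3 at both copies, at 33663 CPM for Mir26a-1 and 33145 CPM for Mir26a-2, which share their sequence and reads. Trained replicate 5 was far from the other trained libraries for miR-15a-3p (high, 13.7 CPM), miR-224-5p (low, 110.3 CPM) and miR-183-5p (high, 618 CPM). Trained replicate 2 was the lowest trained library for miR-27b-3p at 11376 CPM, and it had the fewest reads at 4.63 M. Sedentary replicate 3 was high for miR-148a-3p at 44105 CPM and low for miR-146b-5p at 955 CPM. Sedentary replicate 1 was high for miR-142a-5p at 11391 CPM, and sedentary replicate 4, the shallowest library, low for miR-27a-3p at 2813 CPM.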

How the results depend on the processing

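No alternative called a locus: the smallest adjusted p by edgeR was 0.0609 with the lymphocyte score as a covariate (miR-203-5p). Loci at an unadjusted p under 0.05 numbered 72 of 1701 without the filter, 63 with the lymphocyte score as a covariate, 23 of 470 with thinned reads, and 20 to 46 without each library in turn. Summing copies gave 20 higher and 12 lower. Loci without overlap between groups numbered 1 with relative-log-expression factors, 24 without the 3 libraries rich in lymphocyte miRNAs, and 0 to 6 without each library in turn. Smaller groups separate by chance more often than groups of 6 and 6. Of 1099 alternative values of 50 named miRNAs, 26 turned sign, in 7 miRNAs, and the cause was not tested. These were miR-142a-5p (-0.25 with the lymphocyte score, -0.74 without the 3 libraries, -0.71 to 1.66 without each library), miR-182-5p (0.0410 with upper-quartile factors, -0.18 to 0.10), miR-1a-1-3p (-0.0214 with the muscle score), miR-92a-3p at Mir92-1 (0.0846 with the muscle score, -0.34 to 0.12), miR-126a-3p (-0.0169 to 0.20), miR-148a-3p (-0.15 to 0.0075) and miR-30a-5p (0.0017 in wild type alone, 0.0139 with copies summed, 0.0062 with the lymphocyte score, 0.0253 without the filter, 0.0745 with upper-quartile factors, -0.10 to 0.0611). The muscle score includes miR-1a-1-3p and the lymphocyte score includes miR-142a-5p, so each was adjusted in part for its own level. Of 484 alternative list medians, 248 turned sign or differed from the main median by a factor of more than 1.5. A median near 0 meets this rule with a small shift. No paired analysis was possible because the replicate numbers follow the order of the samples and pair none.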
